A study of Macaca mulatta with 17 samples.

Results

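The change of gene expression with gestational age was described in the uteri of fetuses whose mothers were given bisphenol A (BPA), by setting the 3 arrays of GD165 BPA uteri against the 5 arrays of GD100 BPA uteri. These 8 samples were all those labelled as BPA-exposed among the 17 arrays of the study. The other 9 arrays, 5 from GD100 and 4 from GD165 vehicle controls, served as a separate measure of the same age change. Each array held the RNA of 1 rhesus macaque (Macaca mulatta) fetus.

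The GD100 BPA dams received 400 µg of deuterated BPA per kg of body weight daily by mouth from gestational day 50 to 100, and their fetuses were taken by cesarean section at the end of treatment. The GD165 BPA dams received the same daily dose from day 100, and their young were born vaginally between days 165 and 168. Control dams were given the ethanol vehicle on the same days. Age, the window of exposure and the mode of delivery therefore changed together and cannot be told apart in the contrast. RNA came from a lengthwise portion of each uterus, so that fewer cells of a type and less RNA per cell cannot be told apart either. BPA is a monomer of polycarbonate plastic that binds estrogen receptors weakly.

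The primate uterus forms from the fused Müllerian ducts, whose mesenchyme gives rise to stroma and to the smooth muscle of the myometrium and whose epithelium later invaginates to make endometrial glands. Growth by cell division is rapid at first and slows toward term. Toward birth the fetus also changes its blood, from embryonic and fetal to adult hemoglobin, and gains immune cells in its tissues. The questions addressed were which of these developmental changes appeared in exposed fetuses and whether any of them differed in size from the change in controls.

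All values are log2 signals of single-color Agilent arrays, scaled so that every array had the same 75th percentile, which lay at 12.62. A difference of 1 is a change of 2-fold. Levels of different genes are read by different probes and were not compared with each other. Differences were tested with limma on all 17 arrays, and "rose", "fell" and "called" are used for a Benjamini-Hochberg adjusted p under 0.01 over 20217 probes. On the 8 exposed arrays, 84.2 to 88.4% of spots were well above background, and Pearson's r between arrays across probes was 0.975 to 0.995. All 6 uterine markers examined, HOXA10, HOXA11, EMX2, ESR1, WNT4 and WNT5A, and all 5 smooth muscle markers were well above background on each of the 8 arrays. RNA of other tissues was unevenly present. GD165 BPA replicate 5 held the skeletal muscle markers MYH8 at 13.83, ACTA1 at 13.51 and CKM at 11.13, where the other exposed arrays lay between 3.82 and 8.87, between 6.53 and 9.90 and between 1.75 and 5.63. GD100 BPA replicate 1 held the germ cell markers DDX4 at 9.97 and DAZL at 10.78, against 5.83 and 5.78 at most on the other exposed arrays.

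The 8 exposed uteri separated by age. Of the variance among them 42.4% lay on a first principal component with scores of -54.1, -29.9, -30.2, -23.2 and -24.6 in GD100 BPA replicates 1 to 5 and of 52.7, 59.9 and 49.5 in GD165 BPA replicates 3, 4 and 5. The mean scores were -32.4 ± 12.5 (SD, n = 5) and 54.0 ± 5.3 (SD, n = 3), and the two-sided exact permutation test gave p = 0.0179, the smallest that its 56 regroupings allow. The second component, with 18.8% of the variance, did not follow age (exact permutation p = 0.679). Its high scores were those of GD100 BPA replicate 1, at 56.2, and GD165 BPA replicate 5, at 38.9, the libraries with germ cell and skeletal muscle RNA, and the part of that RNA in the component was not tested.

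**Figure D1:**
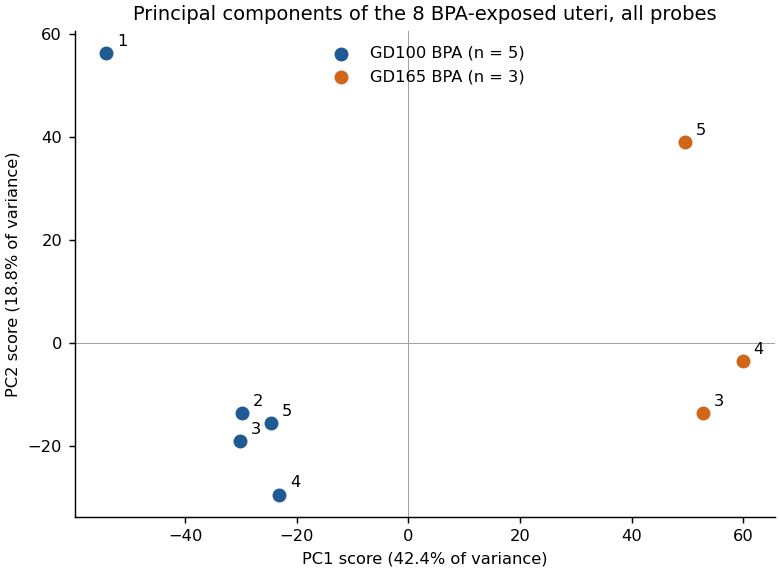
Scores of the 8 BPA-exposed uteri on the first (horizontal) and second (vertical) principal component of 20217 probes; numbers are the replicates. GD100 uteri lie between -54.1 and -23.2 and GD165 uteri between 49.5 and 59.9 on the first component, while GD100 replicate 1 and GD165 replicate 5 stand apart on the second.

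Of 20217 probes, 1956 (9.68%) were called, 974 (4.82%) higher and 982 (4.86%) lower at GD165. Each count of list members below is to be read against these shares. Among these calls 836 were by 2-fold or more and 167 by 4-fold or more, and 1944 had no overlap between the 3 and the 5 arrays, as had 27.2% of all probes. The median SE of a log2 change was 0.18, and the number of arrays limits the precision, so small changes may not have been detectable. The arrays lay on several slides, and only slide 2 held exposed arrays of both ages, 1 of each. Slides 3, 5 and 6 also held both ages when control arrays are counted. Within slide 2 all 1956 called probes differed in the direction of their call, although its 2 exposed arrays were also part of the fit. For the 1944 probes without overlap this was fixed in advance, since any exposed GD165 and GD100 array differ in that direction. The comparison within slide 2 therefore cannot show what part slide had in the calls. With slide as a fixed block 512 probes were called, and 484 of them were among the 1956. Without GD165 BPA replicate 4 the count was 994 and without replicate 5 it was 1181, and the highest count with 1 exposed array left out was 1535. The split between rises and falls depended on the scaling: with the deposited signals unscaled, the median log2 change of all probes moved from -0.05 to 0.13 and 76.2% of calls were rises, against 49.8% here.

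The 15 genes with the largest rises included epithelial and blood genes. CLDN10, a tight junction claudin, had levels of 5.03, 3.15, 2.43, 2.14 and 2.95 in GD100 BPA replicates 1 to 5 and of 8.54, 7.76 and 8.48 in GD165 BPA replicates 3 to 5. The GD165 uteri all lay above the GD100 uteri, of which 1 of 5 was well above background, and the fitted log2 change was 5.12 ± 0.63 (SE, adjusted p = 0.00013), which is imprecise in size because most GD100 levels were not well above background. ITLN1, a lectin of the innate defense against microbes, stood at 10.39, 8.90, 7.31, 8.27 and 9.13 and then at 13.29, 14.67 and 13.11, a change of 4.89 ± 0.85 (adjusted p = 0.00117). IDO1, which breaks down tryptophan and dampens T cell responses, went from 5.83 to 7.46 across the GD100 uteri to 9.98, 10.96 and 11.04, a rise of 16.9-fold. C4BPA, a soluble inhibitor of complement, was not well above background on any GD100 array and read 5.47, 7.31 and 5.84 at GD165, at least 13.9-fold higher. GPNMB, a glycoprotein of macrophages and other cells, rose with little spread, from between 8.12 and 8.79 to 11.91, 11.79 and 11.56.

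CPA3, a granule carboxypeptidase of mast cells, and FCER1A, a chain of the IgE receptor, rose by 4.27 ± 0.73 and 3.70 ± 0.56. Both were dim at GD100, where 3 of 5 arrays were well above background for each. Other mast cell genes did not pass: the log2 differences were -0.23 ± 0.11 for TPSAB1, a tryptase (adjusted p = 0.169), 0.17 ± 0.21 for KIT, the stem cell factor receptor (adjusted p = 0.609), and 1.63 ± 0.47 for MS4A2, a further chain of the IgE receptor, which was well above background on 0 of 5 GD100 arrays and 1 of 3 GD165 arrays (adjusted p = 0.024). TTR, the thyroxine and retinol carrier, and CP, the copper carrier ceruloplasmin, rose by 4.59 ± 1.05 and 3.44 ± 0.72. COL4A4, a basement membrane collagen, rose by 3.34 ± 0.75, although GD100 BPA replicate 1, at 9.34, lay close to GD165 BPA replicate 3, at 9.42. The other leading rises were HLA-DQA1, HBB and MYH2, which are described with their groups, and UNQ1940 (4.92 ± 0.56) and BTEB1 (3.75 ± 0.27), given here under the array's own names.

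The 15 genes with the largest falls included several known from neurons and neuroendocrine cells, SYNPR, SCN1A, NGB, CHGB, LRRTM3, GABRA2 and ATP2B3 among them. AMBN, an enamel matrix protein of developing teeth, had levels of 10.76, 11.41, 11.19, 10.15 and 11.83 at GD100 and of 6.39, 3.68 and 4.91 at GD165, where 2 of 3 arrays were well above background. It fell by 6.08 on the log2 scale (SE 0.58), or 67.5-fold, the largest change that met the naming rule. SYNPR, a synaptic vesicle protein, stood at 8.48, 6.89, 8.02, 7.55 and 7.71 and was not well above background on any GD165 array, at least 39.9-fold lower. PCDH8, a protocadherin, fell from between 7.53 and 9.04 to 4.03, 1.70 and 2.84 (adjusted p = 0.00037).

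CHGB, a secretory granule protein of neuroendocrine cells, was 11.13, 9.85, 10.87, 10.17 and 10.39 at GD100 and 6.29, 7.54 and 6.74 at GD165, a change of -3.63 ± 0.82. GABRA2, a GABA receptor subunit, changed by -3.21 ± 0.22 and LRRTM3, a synaptic adhesion protein, by -3.24 ± 0.35. SCN1A, a neuronal sodium channel, CALB1, a calcium-binding protein, and CRYGC, a lens crystallin, were not well above background on any GD165 array and were at least 12.6-fold, 9.87-fold and 10.5-fold lower. The GD100 level of CRYGC was 9.45 in replicate 1 and 4.94 to 5.93 in the others. NGB, a globin of neurons, and ATP2B3, a calcium pump, changed by -3.76 ± 0.70 and -3.16 ± 0.46, NYD-SP26 by -3.29 ± 0.50 and TEX15, a germ cell gene, by -3.06 ± 0.44. SULT1E1, the sulfotransferase that inactivates estrogens, was among the brighter genes that fell, from 15.31, 15.82, 15.78, 16.06 and 15.19 to 13.96, 11.61 and 11.87, an 8.89-fold change (adjusted p = 0.00249).

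**Figure D2:**
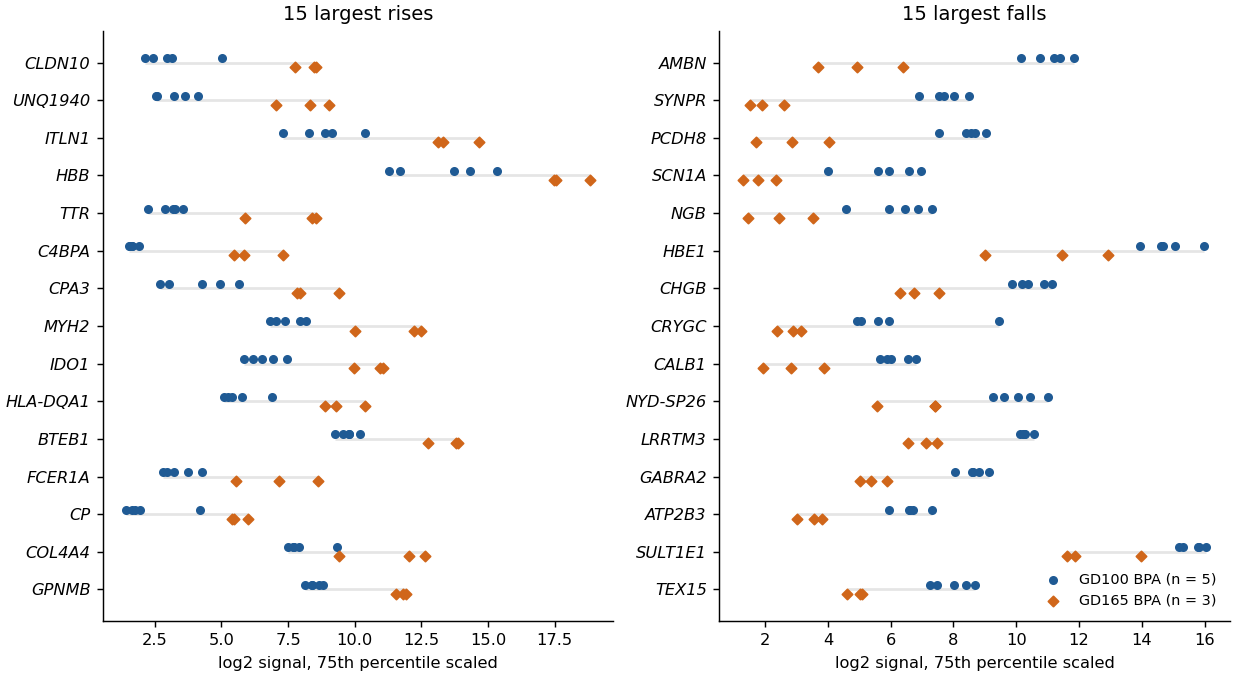
Log2 signal (horizontal, scaled to the 75th percentile) of the 15 genes with the largest rises and the 15 with the largest falls; each point is 1 uterus, GD100 BPA in blue circles (n = 5) and GD165 BPA in orange diamonds (n = 3). The genes were chosen for a lack of overlap between the ages, and the ages come closest for COL4A4 (9.34 and 9.42).

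Of these 30 genes, 24 were also called in controls, all but SYNPR, SCN1A, NGB, HBE1, CHGB and CALB1. With each exposed array left out in turn, 20 of the 30 stayed under the threshold. The 10 that did not were TTR, C4BPA, CP, COL4A4, NGB, HBE1, CHGB, CRYGC, CALB1 and SULT1E1, for which the highest adjusted p with 1 array left out was between 0.0133 and 0.0441. With slide as a fixed block 10 of the 30 were called. Among the rises, ITLN1, HBB, TTR, C4BPA, CPA3, MYH2, HLA-DQA1, FCER1A, CP and COL4A4 were then not called. Among the falls these were SYNPR, PCDH8, SCN1A, NGB, HBE1, CHGB, CRYGC, CALB1, ATP2B3 and SULT1E1.

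The clearest group change was a fall of the genes of cell division. Of 38 genes of mitosis 34 fell and 0 rose, with a median log2 change of -1.0, and of 40 genes of DNA replication 27 fell and 0 rose, with a median of -1.02, against 4.86% of all probes lower and a median of -0.05. AURKB, a kinase of chromosome segregation, was 13.57, 13.84, 13.47, 13.60 and 13.61 at GD100 and 12.43, 12.49 and 12.97 at GD165, a change of -0.99 ± 0.15. The GD100 uteri were tightly grouped and GD165 BPA replicate 5 lay nearest to them. The same order was seen for TOP2A, the topoisomerase that untangles replicated DNA, at 13.97, 14.35 and 14.93 at GD165 (-0.89 ± 0.16), and for CDK1, the mitotic kinase, at 10.57, 11.10 and 11.71 (-0.77 ± 0.18).

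MKI67, the gene of the proliferation marker Ki-67, fell by 1.33 on the log2 scale (SE 0.27), from between 6.94 and 7.80 to 5.74, 6.78 and 5.95. These values are RNA levels. By staining of Ki-67 protein in the same cohort, the paper saw no significant decrease of positive cells at GD165. It calls the impact of the cell cycle gene changes, which it found in controls, uncertain. The mitotic kinesins KIF2C and KIF4A both changed by -1.34, SGOL1, a protector of centromeres, by -1.65 and ASPM, a spindle protein, by -1.42. Among replication genes the largest falls were in the E2F factors E2F2 (-1.55 ± 0.15) and E2F8 (-1.39 ± 0.19), in UHRF1, which carries DNA methylation through replication (-1.48 ± 0.26), and in CDC6, which loads the replicative helicase (-1.38 ± 0.18). The mean mitosis score per array, the average deviation of the list's genes from their means over all arrays, was 0.40 to 0.52 at GD100 and -0.88, -0.59 and -0.12 in GD165 BPA replicates 3 to 5. With single arrays left out, 20 to 36 mitosis and 14 to 26 replication genes were called lower, the fewest without GD165 BPA replicate 3 and without GD165 BPA replicate 4. With slide as a fixed block the counts were 10 and 17.

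Genes of DNA methylation and Polycomb, which keep genes silent, moved both ways. Of 28 measured, 5 fell and 2 rose. DNMT3A, a de novo DNA methyltransferase, was 14.96, 14.82, 14.93, 14.76 and 15.08 and then 13.95, 13.82 and 14.06 (-0.97 ± 0.11), and EZH2, the Polycomb methyltransferase, changed by -0.89 ± 0.13. CBX7, a Polycomb subunit, rose by 1.09 ± 0.14, and without GD165 BPA replicate 4 the list had 2 falls and 1 rise. Of 17 imprinted growth genes 3 fell and 0 rose: MEST (-1.01 ± 0.11), NNAT (-1.16 ± 0.24) and MAGEL2 (-0.63 ± 0.14), of which 1 was called without GD100 BPA replicate 3 or GD165 BPA replicate 3. Of 31 genes of hypoxia and glycolysis 5 fell and 0 rose, among them CA9, a carbonic anhydrase induced by low oxygen (-0.91 ± 0.15), PFKFB4, a regulator of glycolysis (-0.80 ± 0.18), LDHA (-0.51 ± 0.10) and GAPDH (-0.47 ± 0.10). Leaving out GD100 BPA replicate 3, GD165 BPA replicate 3 or GD165 BPA replicate 4 left 2 of these 5, and slide as a fixed block left 0.

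Genes of glandular epithelium rose: 10 of 27 were called higher and 0 lower, against 4.82% of all probes higher, with a median log2 change of 0.60. FOXA2, a transcription factor required for uterine glands in mice, was 4.31, 4.53, 3.97, 3.47 and 4.06 at GD100 and 6.34, 6.93 and 7.11 at GD165. The ages did not overlap and the change was 2.73 ± 0.45, or 6.63-fold (adjusted p = 0.00083). EPCAM, an epithelial adhesion protein, was 13.23, 13.80, 13.76, 13.92 and 13.94 and then 14.83, 15.49 and 15.82, a rise of 1.65 ± 0.26. CAPN13, a calpain protease, rose by 3.20 ± 0.76 from a level at which 1 of 5 GD100 arrays was well above background.

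PAX8, a transcription factor of Müllerian epithelium, rose by 0.93 ± 0.20 and SOX17, which acts in uterine epithelium and vessels, by 0.87 ± 0.15. MUC1, a mucin of the apical surface, rose by 1.13 ± 0.23. The epithelial keratin KRT18 and the cadherin CDH1 did not pass (0.46 ± 0.21 and -0.75 ± 0.60). The summed linear signal of the 27 genes was 181492 to 271045 at GD100 and 324202 to 421831 at GD165. Between 4 and 10 genes were called higher with 1 array left out, the fewest without GD165 BPA replicate 4 (4) and replicate 5 (5), and 2 with slide as a fixed block. Of 12 cilia genes 2 rose, C9orf24 (1.59 ± 0.35) and CAPS (0.89 ± 0.21), and 0 did without any one of GD100 BPA replicates 2, 3 and 4 and GD165 BPA replicates 4 and 5, 1 without GD100 BPA replicate 5. Of 33 squamous epithelium genes 0 rose and 1, CRNN, fell; it was not well above background on any GD165 array and was at least 2.57-fold lower. UPK1B, a membrane protein of bladder epithelium, was 12.96 to 13.88 at GD100 and 15.54, 16.03 and 16.21 at GD165 (2.54 ± 0.33), and UPK3A rose by 0.90 ± 0.20, while 5 of 7 urothelium genes were not called. UPK2, a further bladder marker, was 5.00 to 5.86 at GD100 and 5.81, 5.03 and 5.55 at GD165, and the part of bladder epithelium in the epithelial rises was not tested.

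Among transcription factors and receptors of the Müllerian tract, 3 of 28 fell and 2 rose, against 4.86% and 4.82% of all probes. The rises were 0 or 1 with any exposed array left out. AMHR2, the receptor through which anti-Müllerian hormone acts on the duct, was 12.94, 12.92, 12.74, 13.01 and 12.67 at GD100 and 11.87, 10.47 and 10.85 at GD165 (-1.79 ± 0.26). DACH1, a transcriptional repressor, changed by -0.94 ± 0.11 and FOXL2, a factor of ovary and Müllerian stroma, by -0.84 ± 0.16. Of 21 genes of retinoic acid signaling, which sets the fate of Müllerian mesenchyme, 3 fell and 0 rose, against the same shares. STRA6, the retinol uptake receptor, stood at 13.02 to 13.45 and then at 11.19, 11.22 and 11.27 (-1.94 ± 0.27), CRABP2 changed by -1.64 ± 0.32 and CRABP1 by -1.59 ± 0.38; 1 was called without GD165 BPA replicate 4 and 2 without GD165 BPA replicate 3 or any GD100 array.

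HOX genes set position along the female tract, with HOXA9 in the oviduct, HOXA10 and HOXA11 in the uterus and HOXA13 in the upper vagina. Of 37 measured, 3 rose and 1 fell, a share near the 9.68% of all probes called, and the median change was 0.01. HOXA13 had levels of 11.16, 9.61, 11.61, 11.08 and 11.60 at GD100 and of 8.02, 10.10 and 6.77 at GD165, so GD165 BPA replicate 4 was above 1 GD100 uterus and the ages overlapped. The change was -2.72 ± 0.63 (adjusted p = 0.00741), and the adjusted p was as high as 0.0473 with 1 array left out. HOXB6, HOXB2 and HOXB5 rose by 1.08 ± 0.17, 0.75 ± 0.17 and 0.66 ± 0.16, and 1 or 2 of them were called with any exposed array left out. For HOXA9, HOXA10 and HOXA11 the log2 differences were -0.17 (95% interval -0.41 to 0.07), -0.12 (-0.29 to 0.04) and 0.01 (-0.28 to 0.29).

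Of 43 WNT, FZD and WNT antagonist genes 4 rose and 3 fell, against 4.82% and 4.86% of all probes. WIF1, a secreted inhibitor of WNT, was 11.98, 11.36, 11.88, 12.24 and 12.24 and then 14.06, 13.54 and 14.28 (2.02 ± 0.25). SFRP4 and FRZB, both secreted frizzled-related antagonists, rose by 2.08 ± 0.30 and 1.21 ± 0.22, while DKK2, a further antagonist, fell by 1.26 on the log2 scale (SE 0.29). The WNT ligands required for the duct and its glands in mice did not pass. Their log2 differences were 0.19 (95% interval -0.25 to 0.62) for WNT4, -0.27 (-0.57 to 0.03) for WNT5A and 0.18 (-0.30 to 0.66) for WNT7A. In controls these were -0.62, -0.55 and 0.14, and WNT5A was called there. The differences of the age changes, exposed minus control, were 0.80, 0.28 and 0.04, and none of them passed adjustment. The paper reports WNT4 and WNT5A as higher in BPA-exposed than in control uteri at GD165.

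FGF10, a mesenchymal growth factor for epithelial branching, fell from 6.49, 6.65, 7.02, 5.93 and 6.95 to 3.88, 4.28 and 4.38 (-2.43 ± 0.31, adjusted p = 0.00016). In its list of 33 FGF and Notch genes 7 rose and 2 fell, against 4.82% and 4.86% of all probes. FGF1 rose by 1.67 ± 0.38, the Notch ligand DLL1 by 1.07 ± 0.18, and DLL3 changed by -1.40 ± 0.26. Rises in this list numbered 3 to 6 with 1 array left out, the fewest without GD165 BPA replicate 3 or 5. Of 29 hedgehog and BMP genes 4 rose, among them the BMP antagonist CHRDL1 (1.34 ± 0.21), ID4 (1.12 ± 0.19) and SMAD7 (0.47 ± 0.09), and the hedgehog factor GLI3 fell (-0.89 ± 0.15); 2 rises were called without GD165 BPA replicate 5.

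Of 21 contractile genes of smooth muscle 3 rose and 0 fell, against 4.82% of all probes called higher, and 20 of the 21 log2 differences lay above 0. Those that rose were MYOCD, the coactivator that drives the smooth muscle program (0.95 ± 0.21), LMOD1, an actin nucleator (0.93 ± 0.23), and PPP1R14A, an inhibitor of myosin phosphatase (0.58 ± 0.12). The count was 0 without any one of GD100 BPA replicates 3, 4 and 5 and GD165 BPA replicates 4 and 5, and 1 without GD100 BPA replicate 1. The log2 difference of ACTA2 was 0.16 (95% interval -0.09 to 0.41), that of MYH11 0.33 (0.01 to 0.65, adjusted p = 0.137) and that of CNN1 1.34 ± 0.34 (adjusted p = 0.0128). OXTR, the oxytocin receptor of the myometrium, was 9.85, 10.43, 9.95, 9.39 and 9.41 at GD100 and 12.55, 12.74 and 12.70 at GD165. The 3 GD165 values lay close together, above all GD100 uteri, and the rise was 2.86 ± 0.38, or 7.24-fold (adjusted p = 0.0002). It was 1 of 2 genes that rose among 21 linked to contraction, with PTGER4, a prostaglandin E2 receptor (1.08 ± 0.26), which was not called without any one of GD100 BPA replicates 1, 3 and 5.

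The skeletal muscle list had 5 rises and 2 falls among 40 genes and a median log2 change of 0.85, which fell to 0.09 without GD165 BPA replicate 5. MYH8, the perinatal myosin, was 3.82 to 8.87 at GD100 and 6.83, 7.21 and 13.83 at GD165, and its log2 difference of 3.64 ± 1.53 did not pass (adjusted p = 0.105). MYH2, a fast fiber myosin, did: it was 7.37, 8.17, 7.06, 7.96 and 6.82 and then 10.01, 12.22 and 12.47 (4.09 ± 0.61), also with each array left out. MYH1, not well above background on any GD100 array, was at least 6.81-fold higher, and the slow troponin TNNC1 rose by 1.81 ± 0.31. MYBPC2, a myosin-binding protein, moved the other way, from 11.15, 11.20, 10.70, 10.88 and 11.06 to 8.47, 7.87 and 8.97 (-2.56 ± 0.27). The summed signal of the skeletal muscle markers was 34343 in GD165 BPA replicate 5 and 312 to 5162 on the other exposed arrays, and its part in these results was not tested.

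Steroid receptors are the direct route of hormone action, and ESR1, the estrogen receptor alpha gene, rose from 9.87, 10.52, 10.18, 10.49 and 10.61 to 11.54, 11.28 and 11.03. The change was 0.95 ± 0.17, or 1.93-fold (adjusted p = 0.00174), and the adjusted p reached 0.0116 with 1 array left out. Of 17 receptors and coactivators 5 rose and 1 fell, and 3 rose without GD165 BPA replicate 3 or 5. NR3C2, the mineralocorticoid receptor, rose by 1.58 ± 0.14, PGRMC1 by 0.61 ± 0.10 and NR3C1, the glucocorticoid receptor, by 0.54 ± 0.10. ESRRG, an orphan receptor, fell from between 10.31 and 11.53 to 9.23, 9.30 and 9.02 (-1.82 ± 0.31). PGR, the progesterone receptor, was not well above background in any GD100 uterus and was in 2 of 3 at GD165, at 1.96, 4.77 and 3.72. PGR did not pass (limma adjusted p = 0.0161). No size is given for its difference, since it was not well above background on every GD165 array.

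Lists of hormone-responsive genes were counted in the same way, and differences between lists were not tested. Of 18 glucocorticoid-responsive genes 6 rose and 0 fell, against 4.82% and 4.86% of all probes, with a median of 0.59. The 3 differences below 0 were those of TAT (-0.46), FKBP5 (-0.34) and LCN2 (-0.13), which did not pass. ZBTB16, a zinc finger factor strongly induced by glucocorticoids, was 11.88, 10.70, 11.82, 11.22 and 10.80 and then 14.24, 15.12 and 12.59 (2.70 ± 0.46). DUSP1, a phosphatase of MAP kinases, rose by 1.38 ± 0.28, CEBPD by 0.85 ± 0.16 and MAOA, which degrades monoamines, by 0.81 ± 0.14. The lists share members: DUSP1 also counts among the immediate early and MAOA among the progesterone-responsive genes. Between 5 and 8 glucocorticoid-responsive genes rose with 1 array left out, and 0 with slide as a fixed block. Of 24 estrogen-responsive genes 3 rose and 2 fell, with a median of -0.08, and of 21 progesterone-responsive genes 4 rose and 1 fell. The rises were 1 and 2 without GD165 BPA replicate 4, and 2 of the progesterone-responsive genes rose without GD165 BPA replicate 5. SLC7A5, an amino acid transporter, changed by -1.13 ± 0.24 and ADAMTS4, a protease of cartilage and stroma, by -0.87 ± 0.12. PRLR, the prolactin receptor, rose by 1.84 ± 0.37. HSD17B2, which oxidizes estradiol to estrone, rose from levels not well above background at GD100. Since 1 of the 3 GD165 arrays did not measure it above background either, the size of its rise is not given.

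Immediate early genes, which respond within minutes to growth factors, stress or tissue handling, had 13 of 29 members called higher and 1 lower, against 4.82% and 4.86% of all probes, with a median of 0.64; 8 of the 29 differences lay below 0. GEM, a small GTPase, was 10.24, 10.90, 10.15, 10.83 and 10.75 and then 11.95, 12.68 and 12.85 (1.92 ± 0.34). CYR61 and CTGF, matricellular proteins, rose by 1.84 ± 0.43 and 1.43 ± 0.31 and ATF3, a stress-induced factor, by 1.56 ± 0.24. The gene that fell was DUSP2, a nuclear phosphatase. With 1 array left out 4 to 9 genes were called higher, the fewest without GD165 BPA replicate 3 or 5, and 3 with slide as a fixed block. Cesarean and vaginal delivery differed between the ages, and their part in these genes cannot be told apart from age.

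Of 16 MHC class II genes, which present antigen to T cells, 6 rose and 0 fell, against 4.82% of all probes higher, and 10 were not called. The median log2 change was 1.35, the highest of the 42 lists, and 1 gene was called with slide as a fixed block, where HLA-DQA1 had an adjusted p of 0.0135. CD74, the invariant chain, was 13.86, 13.63, 12.66, 13.34 and 13.88 at GD100 and 16.88, 15.31 and 15.42 at GD165 (2.39 ± 0.39), with the highest value in GD165 BPA replicate 3. The class II chains HLA-DQA1, HLA-DRA and HLA-DRB5 rose by 3.84 ± 0.54, 2.27 ± 0.37 and 2.00 ± 0.43; their paralogs are alike in sequence and a probe may read more than 1 of them. Of 16 class I genes 4 rose and 1 fell, the rises including HLA-E (1.16 ± 0.18), PSMB9, an immunoproteasome subunit (1.07 ± 0.16), and B2M, the shared light chain (0.61 ± 0.12); the class I rises were 2 without GD165 BPA replicate 4 or 5 and 1 with slide as a fixed block.

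Of 46 leukocyte genes 9 rose, 0 fell and 37 were not called, with a median of 0.50. FCGR3, an IgG receptor of macrophages and natural killer cells, was 5.81 to 6.97 and then 10.01, 8.40 and 8.81 (2.81 ± 0.39), GZMB, a protease of cytotoxic cells, rose by 2.09 ± 0.42 and LYZ, lysozyme, by 1.66 ± 0.28. The pan-leukocyte marker PTPRC did not pass (1.44 ± 0.50, adjusted p = 0.0517), nor did CD53 and LAPTM5 (0.59 ± 0.22 and 0.70 ± 0.26). The summed signal of the 46 genes was 112677 to 136012 at GD100 and 134691 to 185125 at GD165, and 5 to 9 genes were called higher with 1 array left out, the fewest without GD165 BPA replicate 3, and 1 with slide as a fixed block.

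Of 28 interferon-stimulated genes 8 rose and 0 fell, with a median of 0.68. ISG20, a nuclease, rose from between 6.54 and 7.57 to 9.38, 10.20 and 9.97 (2.73 ± 0.40), MX2 by 1.80 ± 0.42, IRF7 by 1.69 ± 0.29 and the RNA sensor IFIH1 by 1.22 ± 0.19; 4 genes of the list were called without GD165 BPA replicate 4 and 2 with slide as a fixed block. Of 19 complement genes 5 rose and 0 fell, led by C7 (2.83 ± 0.46) and C2 (1.75 ± 0.39), with C1QB (1.07 ± 0.26). The count was 1 without GD100 BPA replicate 3 or GD165 BPA replicate 4, 2 without GD100 BPA replicate 5 or GD165 BPA replicate 3 or 5, 3 without GD100 BPA replicate 2 and 1 with slide as a fixed block. Of 30 genes of TNF and NF-κB 5 rose and 0 fell, including TNF (1.76 ± 0.33), IL1B (1.51 ± 0.29), TNFRSF1B (0.77 ± 0.13) and the inhibitor NFKBIA (0.65 ± 0.10), with 3 called without GD165 BPA replicate 3 or 5 and 0 with slide as a fixed block. Of 25 endothelial genes 4 rose and 1 fell. VWF, von Willebrand factor, rose by 1.37 ± 0.29, SOX18 by 1.22 ± 0.18 and ANGPT1 by 0.74 ± 0.15, the ligand APLN changed by -0.84 ± 0.19, and 1 gene was called higher without GD165 BPA replicate 3 or 5.

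**Figure D3:**
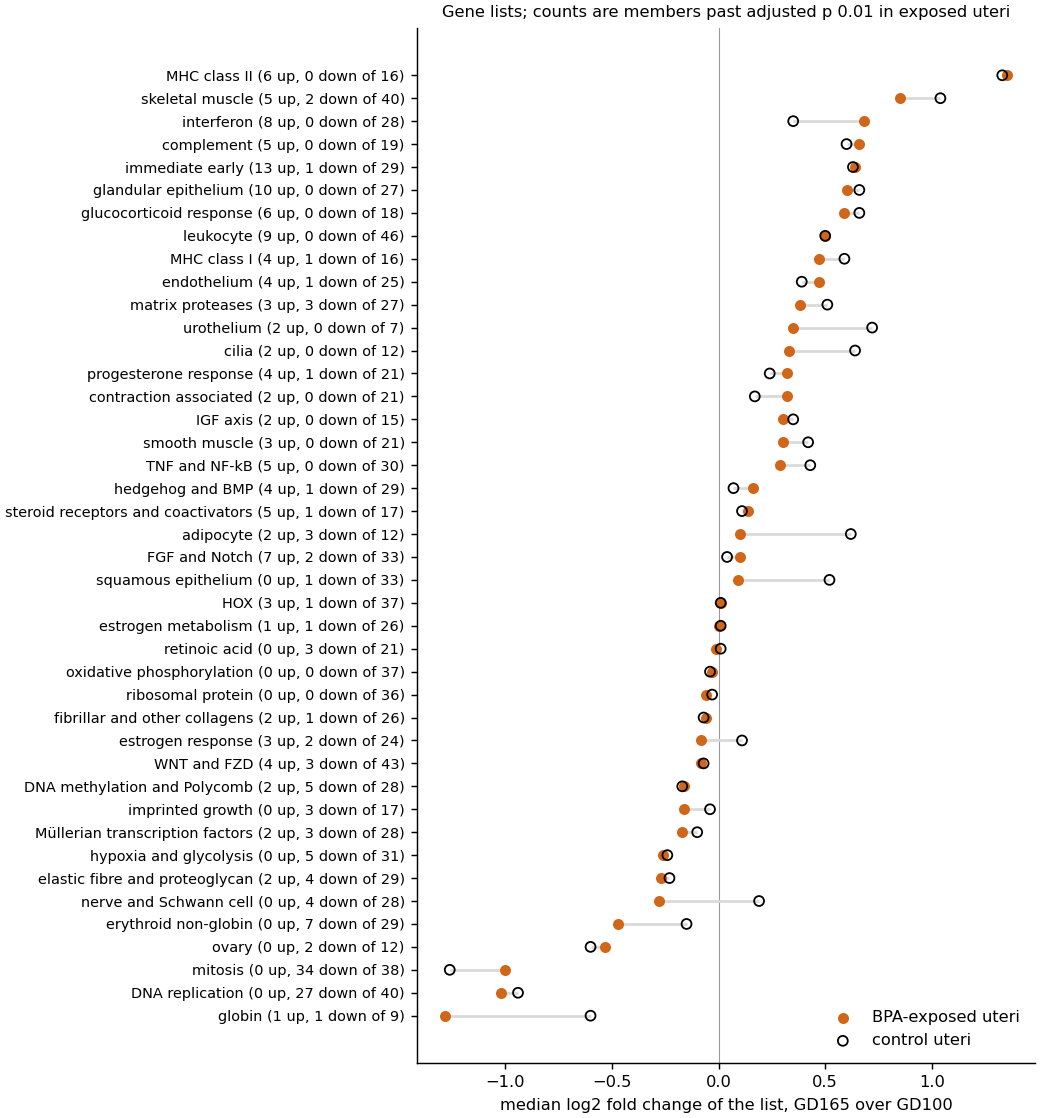
Median log2 fold change of GD165 over GD100 (horizontal) of the 42 gene lists in BPA-exposed (filled orange) and control uteri (open), with the members called in exposed uteri beside each name. MHC class II stands highest (1.35) and the globin list lowest (-1.28) in exposed uteri, followed by DNA replication (-1.02) and mitosis (-1.0).

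Globin genes moved in opposite directions, 1 up and 1 down among 9 measured. They are expressed in red cells in developmental order, HBE1 in the embryo, HBG1 and HBG2 in the fetus and HBB from around birth, with HBA2 throughout from fetal life. The stretches read by the embryonic and fetal probes are shown as designed on the array. No stretch is in capitals, and the longest run of bases that the HBE1 probe shares with a probe of another globin gene is 6, against 10 for the HBG1 probe, shared with the HBG2 probe. These runs compare probes with probes, which may lie at different positions in their genes. Whether a probe also binds the transcript of another globin gene was not tested.
HBE1: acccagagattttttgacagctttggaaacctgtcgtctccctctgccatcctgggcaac
HBG1: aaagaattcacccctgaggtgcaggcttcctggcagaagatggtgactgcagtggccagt

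HBE1 was 14.61, 15.05, 13.94, 15.98 and 14.69 at GD100 and 11.47, 9.01 and 12.93 at GD165, a change of -3.72 ± 0.80 (adjusted p = 0.00488) that reached an adjusted p of 0.0326 with 1 array left out. HBG1, by the probe shown, was 19.10, 19.07, 18.80, 18.99 and 18.89 and then 16.77, 14.04 and 18.20 (-2.63 ± 0.66, adjusted p = 0.0119), with 1 GD100 array saturated. The brighter HBG1 probe, saturated on 0 arrays, gave -2.24 ± 0.58 (adjusted p = 0.0139), so HBG1 did not pass by either probe. GD165 BPA replicate 4 was the lowest and replicate 5 the highest of the GD165 uteri for HBE1 and HBG1. The HBG2 probe was saturated on 4 of 5 GD100 arrays, at 19.05 to 19.32 on all 5, and read 16.98, 14.29 and 18.47 at GD165, so the size of its difference is not given; HBG1 and HBG2 are near-identical genes. HBB moved the other way, from 11.70, 13.72, 15.34, 14.32 and 11.29 to 17.47, 17.53 and 18.82. Its rise was 4.67 ± 0.81, or 25.5-fold (adjusted p = 0.00117), and the GD100 uteri were widely spread. HBA2, which is expressed in red cells at both ages, differed by -1.28 ± 0.40 (95% interval -2.14 to -0.42, adjusted p = 0.0357).

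Of 29 other erythroid genes 7 fell and 0 rose, with a median of -0.47. HEMGN, a nuclear factor of erythroblasts, was 9.68, 9.80, 7.17, 10.75 and 9.20 and then 6.42, 5.55 and 7.05 (-2.98 ± 0.66). KLF1, which activates HBB in adult erythroblasts, changed by -2.17 ± 0.47 and RHAG, a red cell membrane protein, by -2.93 ± 0.65, with 1 of 3 GD165 arrays well above background. TRIM10, not well above background on any GD165 array, was at least 4.42-fold lower. ALAS2, the heme synthesis enzyme, and SLC4A1, the anion exchanger of red cells, did not pass (-2.54 ± 0.76 and -2.43 ± 0.60). These calls rested on few arrays: 0 genes were called without GD165 BPA replicate 3 or 4, 1 without GD100 BPA replicate 1, 4 or 5, 2 without GD100 BPA replicate 2 and 3 without GD165 BPA replicate 5, against 8 without GD100 BPA replicate 3, and 0 with slide as a fixed block.

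**Figure D4:**
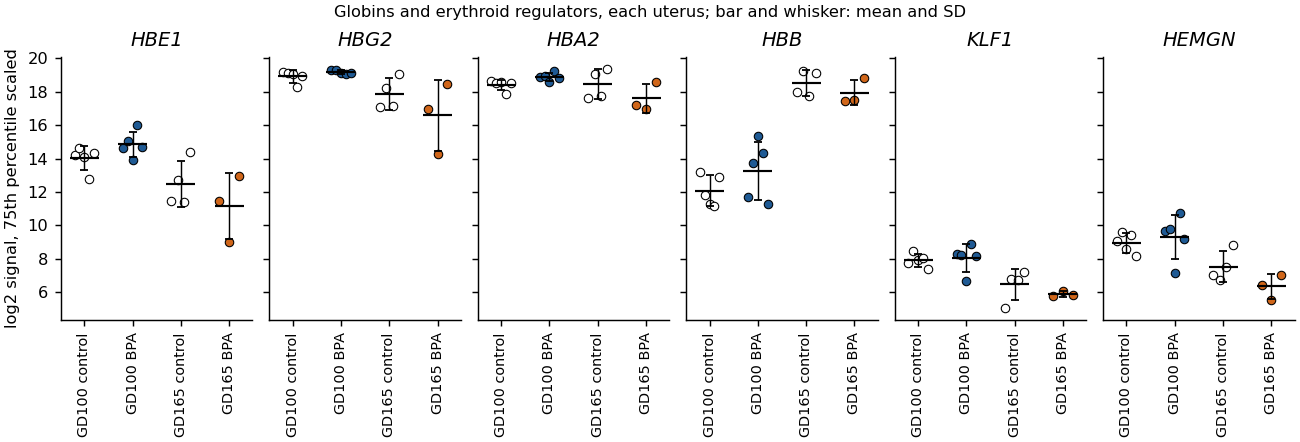
Log2 signal (vertical, scaled to the 75th percentile) of 4 globins and 2 erythroid regulators in each uterus of the 4 groups; bars are means, whiskers SD, n = 5, 5, 4 and 3 from left to right. In exposed uteri HBB rises by 4.67 and HBE1 falls by 3.72, and the controls are drawn open beside them.

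Some extracellular matrix genes rose and others fell, where 9.68% of all probes were called. MMP11, a protease of stromal cells, was 14.54, 14.53, 15.03, 14.65 and 14.84 and then 16.61, 17.28 and 17.89 (2.54 ± 0.33), and MMP19 rose by 1.55 ± 0.33 while MMP16 changed by -0.70 ± 0.15; 3 of 27 matrix proteases rose and 3 fell, the falls being 1 without GD165 BPA replicate 4 or 5. FBN3, a fibrillin of fetal tissue, fell from 12.31, 11.62, 12.36, 11.90 and 11.55 to 9.53, 10.48 and 9.04 (-2.26 ± 0.41), and FBLN1, a fibulin, by 0.84 on the log2 scale (SE 0.11). MFAP5, of elastic microfibrils, and TNXB, a tenascin, rose by 1.85 ± 0.38 and 1.19 ± 0.23, and of 29 elastic fiber and proteoglycan genes 2 rose and 4 fell, of which 1 and 2 were called without any one GD165 array. Of 26 collagens 2 rose and 1 fell, a share near that of all probes, with a median of -0.06. COL4A3, well above background on 1 of 5 and 2 of 3 arrays, rose by 3.59 ± 0.85 and COL18A1 by 0.54 ± 0.12, while COL5A1 changed by -0.60 ± 0.13. The rises were 0 without any one of GD100 BPA replicates 2 to 5 and GD165 BPA replicates 4 and 5.

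Of 28 nerve and Schwann cell genes 4 fell and 0 rose, against 4.86% of all probes lower. The median log2 change was -0.28 in exposed uteri and 0.19 in controls, where 3 of these genes rose and 3 fell. The difference, exposed minus control, had an unadjusted limma p under 0.05 for 9 of the 28, against 7.83% of all probes. It was below 0 for 8 and above 0 for 1 of them, and 0 passed adjustment. NGFR, the neurotrophin receptor, was 15.37, 15.47, 15.52, 15.52 and 15.45 and then 14.23, 14.02 and 14.34 (-1.27 ± 0.14), and TH, the enzyme of catecholamine synthesis, changed by -0.89 ± 0.12, UCHL1 by -0.73 ± 0.17 and NCAM1 by -0.64 ± 0.15. Without any one of GD100 BPA replicates 3, 4 and 5 and GD165 BPA replicates 3 and 4, 2 of them were called. The Schwann cell markers SOX10 and S100B did not pass (-0.28 ± 0.18 and -0.27 ± 0.33). The summed signal of the list was 184542 to 208188 at GD100 and 132776 to 152212 at GD165. Of 15 genes of the IGF axis IGFBP7 (1.28 ± 0.19) and IGFBP6 (1.16 ± 0.15) rose and 0 fell. Of 12 adipocyte genes 2 rose, led by the fatty acid transporter CD36 (1.92 ± 0.33), and 3 fell, SCD (-1.24 ± 0.18), FASN (-0.72 ± 0.17) and LIPE (-0.63 ± 0.15); 1 rise and 1 or 2 falls were called with most single arrays left out. No member (0) of the 37 oxidative phosphorylation and 36 ribosomal protein genes was called, with medians of -0.03 and -0.06. The 12 ovary genes had 2 falls, TEX15 and FOXL2, and 0 rises.

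The same age contrast was measured in controls, which share no array with the exposed uteri. There 2328 probes (11.5%) were called, 1277 (6.32%) higher and 1051 (5.2%) lower, and 1349 were called in both. These were 69.0% of the calls in exposed and 57.9% of those in control uteri, and all 1349 had the same direction. Of the 1956 calls in exposed uteri 1916 had the same direction in controls, and across these probes the median size of the log2 change was 0.92 in exposed and 0.79 in control uteri, where the exposed value was favored because it made the calls. Mitosis genes fell in controls too, 37 of 38, with a median of -1.26, as did 33 replication genes (-0.94). For FOXA2, OXTR, AMBN, STRA6 and ESR1 the log2 differences were 2.38, 2.84, -6.10, -1.80 and 0.73 in controls, against 2.73, 2.86, -6.08, -1.94 and 0.95 in exposed uteri.

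**Figure D5:**
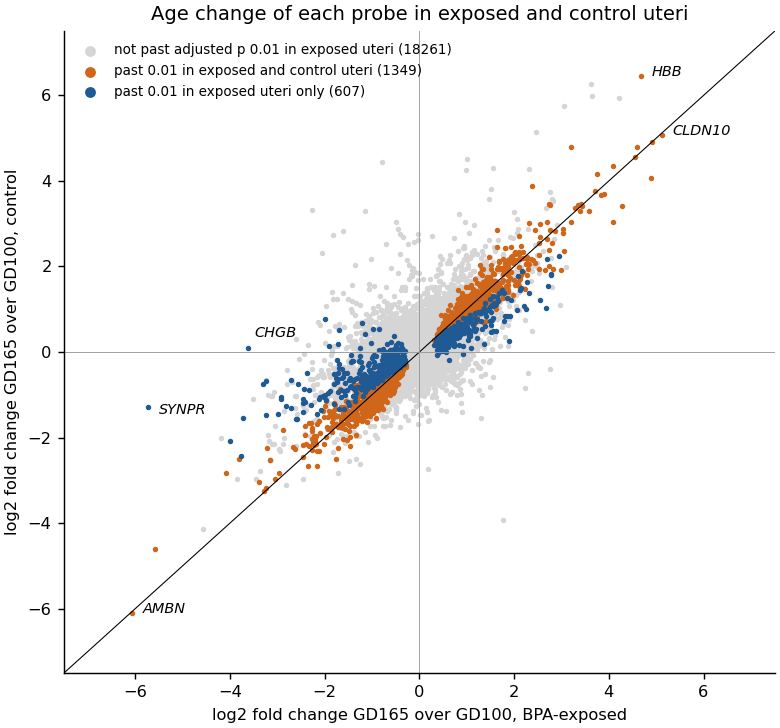
Log2 fold change of GD165 over GD100 in BPA-exposed (horizontal) and control uteri (vertical), 1 point per probe, with the line of equal change. The 1349 probes called in both lie along the line, CLDN10 and AMBN close to it, while SYNPR and CHGB, called in exposed uteri only, lie to its left with control changes of -1.28 and 0.10.

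The difference between these changes, exposed minus control, was tested directly by the interaction term, and 0 of 20217 probes (0%) passed. The smallest adjusted p by limma was 0.269, and 1584 probes (7.83%) had an unadjusted p under 0.05. The precision was lower than for the age change itself: the median SE of the difference was 0.24, and the 95% interval of the difference of a probe called in exposed uteri reached 0.48 to either side at the median. In simulated data, 200 probes were given a difference and tested at the same threshold. Of these 200, 0 were recovered at 1.5-fold, 64 at 2-fold and 153 at 4-fold, so real differences of such sizes can be missed. Of the 607 probes called in exposed uteri only, 567 had the same direction in controls and 191 an unadjusted p of the difference under 0.05. A call in only 1 of the groups does not by itself show a difference.

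Some falls were larger in exposed than in control uteri at an unadjusted p, and none of them passed adjustment. SYNPR was 8.12, 6.23, 7.60, 8.82 and 8.75 in GD100 controls and 4.42, 7.08, 6.88 and 8.11 in GD165 controls, where all 4 were well above background. The difference of its age changes had a limma adjusted p of 0.366. No size is given for it, since SYNPR was not well above background on any GD165 BPA array. CHGB was 7.68 to 10.72 and 6.50, 9.06, 10.51 and 10.58 in controls, with a difference of -3.73 (-6.10 to -1.35, adjusted p = 0.52). For FGF10 the difference was -1.58 (-2.47 to -0.69, adjusted p = 0.482), from a control change of -0.86, and for MYBPC2 it was -1.81 (-2.58 to -1.04, adjusted p = 0.366). For HOXA13, at 9.78 to 11.39 in GD165 controls, it was -2.06 (-3.88 to -0.23, adjusted p = 0.593). For CALB1 the limma adjusted p was also 0.593, and no size is given for the same reason as for SYNPR. These genes were singled out after their values were seen. The age change in exposed uteri, for which they had been named, is part of the difference, so the size of the difference was favored.

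Among the receptors, the rise of NR3C1 was 0.39 larger in exposed uteri (95% interval 0.11 to 0.68) and that of PGRMC1 0.38 larger (0.08 to 0.67), with adjusted p of 0.529 and 0.548. The age differences in controls were 6.46 for HBB and -1.55 for HBE1, and those between exposed and control were -1.79 (-4.12 to 0.55) and -2.17 (-4.49 to 0.15).

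The 5 named genes with the smallest p of the difference are given as values. One of them, COX7C, a subunit of respiratory chain complex IV, was 12.92 to 13.15 at GD100 and 13.71, 12.99 and 14.27 at GD165 in exposed uteri, against 13.91 to 14.06 and 12.89 to 13.17 in controls, a difference of 1.62 (95% interval 1.07 to 2.16, adjusted p = 0.269). CTEN, an adaptor of focal adhesions, had age differences of -0.02 in exposed and 1.30 in control uteri (difference -1.33, -1.82 to -0.84), and FLJ45436 of -0.53 and 0.38 (difference -0.91, -1.25 to -0.57), each at an adjusted p of 0.269. IL19, an interleukin, was not well above background on any exposed array and was 5.90, 3.20, 4.93 and 4.48 in GD165 controls, 3 of them above background. C21orf93 was not well above background on any exposed array either.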

How the data were processed

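Fetal uterine RNA was hybridized to 1-color Agilent rhesus arrays, 1 fetus per array. The deposited intensities are the authors' Feature Extraction processed signals, background-subtracted per the file headers. Control spots and outlier-flagged spots were left out, the 2 spots of a probe averaged, and log2 values scaled to each array's 75th percentile. Of 20217 probes, 18013 had a gene name in the array's annotation, some of them old names. Moderated tests used limma 3.58.1 (R 4.3.3) with all 17 arrays in 4 groups and Benjamini-Hochberg adjustment. Named genes were the 15 largest rises and 15 largest falls past the threshold (linear signal of at least 50 in a group, brighter group well above background on every array, no overlap between ages), up to 4 leading called members of each list, its defining members, cell type markers and the 5 smallest p of the difference, with the probe of highest mean signal for each gene. Fold bounds replace folds where a group was not well above background, and for PGR and HSD17B2 no fold is given. Nothing in the labels says more about replicates than separate fetuses. Members and lists were chosen with earlier results of these data known. The test was tested on simulated data. Background, scaling, filters, samples, prior, weights, slide, replicate block and single arrays were varied. Some genes of the lists, counted among their members, are not reported here by name.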

Additional observations from a re-analysis of the deposited data

Results flagged for a closer look

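For 16 named genes of 189 tested, 1 of the 5 GD100 BPA uteri stood far from the other 4 on the log2 scale. The cutoff flags about 1 in 20 among independent genes with normal spread. These genes were selected and share arrays, so an excess over that rate is not shown. In 10 of these the array was GD100 BPA replicate 1. It was the highest for ACTA1 (9.90), C9orf24 (8.17), CKM (5.63), COL4A3 (3.78), COL4A4 (9.34), CRYGC (9.45) and DDX4 (9.97), and the lowest for DKK2 (10.79), EPCAM (13.23) and HOXA11 (14.70). GD100 BPA replicate 2 was the highest for CP (4.19) and the lowest for HOXA13 (9.61). GD100 BPA replicate 3 was the highest for ACTA2 (19), NNAT (14.11) and STRA6 (13.45), and GD100 BPA replicate 5 for CBX7 (13.25). The GD165 BPA group, with 3 arrays, was too small for this comparison.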

How the results depend on the processing

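With only the exposed uteri in the fit 1176 probes were called (585 higher, 591 lower), with slide as a fixed block 512 (243 and 269), and at an adjusted p of 0.05 4255 (1922 and 2333). Without scaling 389 were called lower. Leaving out single arrays gave 994 to 1535 calls (516 to 769 higher, 478 to 772 lower), and 0 to 1 calls for the difference from controls, the 1 without GD165 BPA replicate 4. The replicate numbers did not pair the samples, whose correlations of deviations were 0.00, 0.09 and 0.01, and a replicate block gave 1444 calls. Of 160 named genes past the threshold none (0) reversed under an alternative, and 81 stayed past it with every array left out in turn. Genes near 0 reversed: CTEN was 0.06 with quantile normalization, 0.16 without scaling, 0.10 with slide fixed, 0.01 with the replicate block and -0.12 to 0.05 with single arrays left out. HOXA11 was -0.01 with normexp, -0.07 and -0.01 with slide as a fixed and a random block, -0.04 with the replicate block and -0.09 to 0.07 with single arrays left out. Without scaling HOXA10 was 0.06 and HOXA9 0.01. The cause was not tested. Probes not well above background in a group give bounds only, and those so on some of its arrays an imprecise size.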
